A study of Sus scrofa with 39 samples.

Results

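The genes of the proteasome were followed through whole-blood RNA of preterm piglets with and without necrotizing enterocolitis (NEC), an inflammatory and necrotic bowel disease of preterm newborns. Members were all gene rows whose Ensembl pig symbol begins with PSMA, PSMB, PSMC, PSMD, PSME, PSMF or PSMG, and 43 of the 25880 rows met this rule. Of these, 41 had enough counts to be tested, and PSMA8 and PSMB11, a testis and a thymus subunit in mouse, had 0 counts in all 39 libraries. Among the 41 were 6 alpha and 5 standard beta subunits of the 20S core, 5 inducible genes, 6 ATPases and 10 other subunits of the 19S cap, 3 other activators or inhibitors and 4 assembly chaperones. PSMC3IP and PSME3IP1 matched the rule by their letters but encode a recombination cofactor and a PSME3-binding protein, not subunits. PSMA6, PSMB5, PSMB6, PSMD2, PSMG1, PSMG2 and PSMG4 were not analysed here.

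The 20S core is a barrel of alpha rings, which gate the entrance, and beta rings, which hold the proteolytic sites. The 19S cap binds ubiquitin-tagged proteins, unfolds them with its ATPase ring and feeds them into the core. In cells of the immune system, and in others under interferon-gamma, PSMB8, PSMB9 and PSMB10 replace the standard catalytic subunits PSMB5, PSMB6 and PSMB7, and PSME1 and PSME2 form the 11S activator; this immunoproteasome is known for cutting peptides for MHC class I molecules.

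Blood was profiled in 19 piglets without NEC (CON), 11 with mild and 9 with severe NEC. All were born preterm and fed formula, and NEC was diagnosed at necropsy on day 5, while the sources used here do not say when blood was drawn. The labels name no strain, genotype or drug for any group, list 19 piglets as female and 20 as male, and place each in 1 of 3 batches. The CON piglets were split 7, 5 and 7 over batches 1, 2 and 3, the mild ones 4, 0 and 7, and the severe ones 3, 4 and 2.

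Each library carried 12.8 to 29.0 M counts on genes, of which the 5 globin rows took 35.0 to 90.6%. The members together received 3894 to 36937 counts per library, or 0.232 to 0.364% of the counts outside globin genes. Levels are given as TMM-scaled CPM, the counts set against the size of their library, which are not per transcript length and are therefore compared only within a gene. NEC_Severe replicate 9 stood apart, with the fewest detected genes (10674) and the highest CPM of all 39 libraries for 19 of the 41 tested members. It was also the lowest of all 39 for PSMD12, PSMC6, PSMD5 and PSMC3IP, at 0.724, 3.10, 0 and 0 CPM. The share of all genes for which it was the highest was not computed. TMM factors spanned 0.308 in CON replicate 7 to 4.09 in CON replicate 16. Each library of batch 1 belongs to the R17 series of the library names and each of batch 2 to FKDL, while batch 3 mixed FKDL with 4 BKDL libraries, all of them controls. The labelled tissue was carried by its defining genes: HBB had at least 4498739 counts in every library, and the T cell genes CD3E and CD2 at least 107 and 78.

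The first question was whether proteasome RNA in blood differed with the disease. The catalytic subunits of the immunoproteasome read lower in NEC, but in edgeR no member passed an FDR of 0.05, the threshold for a call. With all 20 NEC piglets against CON, edgeR called 0 of 41 members, and 0% of 10731 genes. At an unadjusted p under 0.05 stood PSMB8, PSME1 and PSMA4, 3 of the 41 members, against 14.4% of all genes. DESeq2 and limma also called 0 members there, and 0.559% and 1.15% of genes. For mild against CON, edgeR called 0 members, and 0% of genes, with PSME1, PSMD10 and PSMB8 at an unadjusted p under 0.05 against 7.84% of genes, and DESeq2 and limma called 0 members and 0% of genes. For severe against CON, edgeR and DESeq2 called 0 members, while edgeR called 2.09% and DESeq2 5.29% of genes, and PSMD1 and PSMG3 had an unadjusted p under 0.05 in edgeR, against 18.6% of genes. limma called PSMB8 and PSMB10 in that comparison, at -0.54 and -0.41, where it called 15.9% of genes. For severe against mild, edgeR called 0 members and 0.112% of genes, with PSMB3 and PSMD10 at an unadjusted p under 0.05 against 12.6% of genes. There DESeq2 called 0 members and 1.01% of genes, and limma 1 member, PSME1 at -2.48, and 7.82% of genes. The mild and the severe comparison share the 19 CON piglets.

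PSMB8 encodes the inducible chymotrypsin-like subunit (Sscrofa11.1 chr7:25058456-25061666). Its level had a lowest, median and highest value of 19.8, 35.3 and 86.0 CPM in CON, of 17.9, 32.5 and 42.5 in mild and of 14.3, 19.5 and 73.1 in severe piglets. The groups overlapped, the severe median lay below the lowest control, and 1 severe piglet, replicate 9, lay above all others of its group. The log2 fold change was -0.42 ± 0.21 (SE) for mild and -0.41 ± 0.21 for severe against CON (edgeR adjusted p = 0.634 and 0.279), and -0.41 ± 0.16 over all NEC piglets (edgeR adjusted p = 0.236).

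PSMB9 lies beside it on the same chromosome (chr7:25072133-25077508) and encodes the inducible counterpart of PSMB6. It read 4.58, 11.15 and 28.6 CPM (lowest, median, highest) in CON, 5.24, 10.6 and 19.6 in mild and 3.86, 7.11 and 13.8 in severe piglets. The groups overlapped, and no severe piglet reached the upper part of the control range. Its log2 fold change was -0.23 ± 0.23 for mild and -0.45 ± 0.23 for severe piglets (edgeR adjusted p = 0.786 and 0.276).

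PSMB10, the inducible trypsin-like subunit and the counterpart of PSMB7, lies on another chromosome (chr6:28544910-28547609). It read 7.87, 13.7 and 34.0 CPM in CON, 7.15, 10.8 and 16.2 in mild and 7.49, 9.17 and 32.0 in severe piglets. CON replicate 10 and severe replicate 9 held the high ends, far above the other piglets of their groups. The log2 fold change was -0.27 ± 0.20 for mild and -0.30 ± 0.20 for severe (edgeR adjusted p = 0.709 and 0.431).

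**Figure D1:**
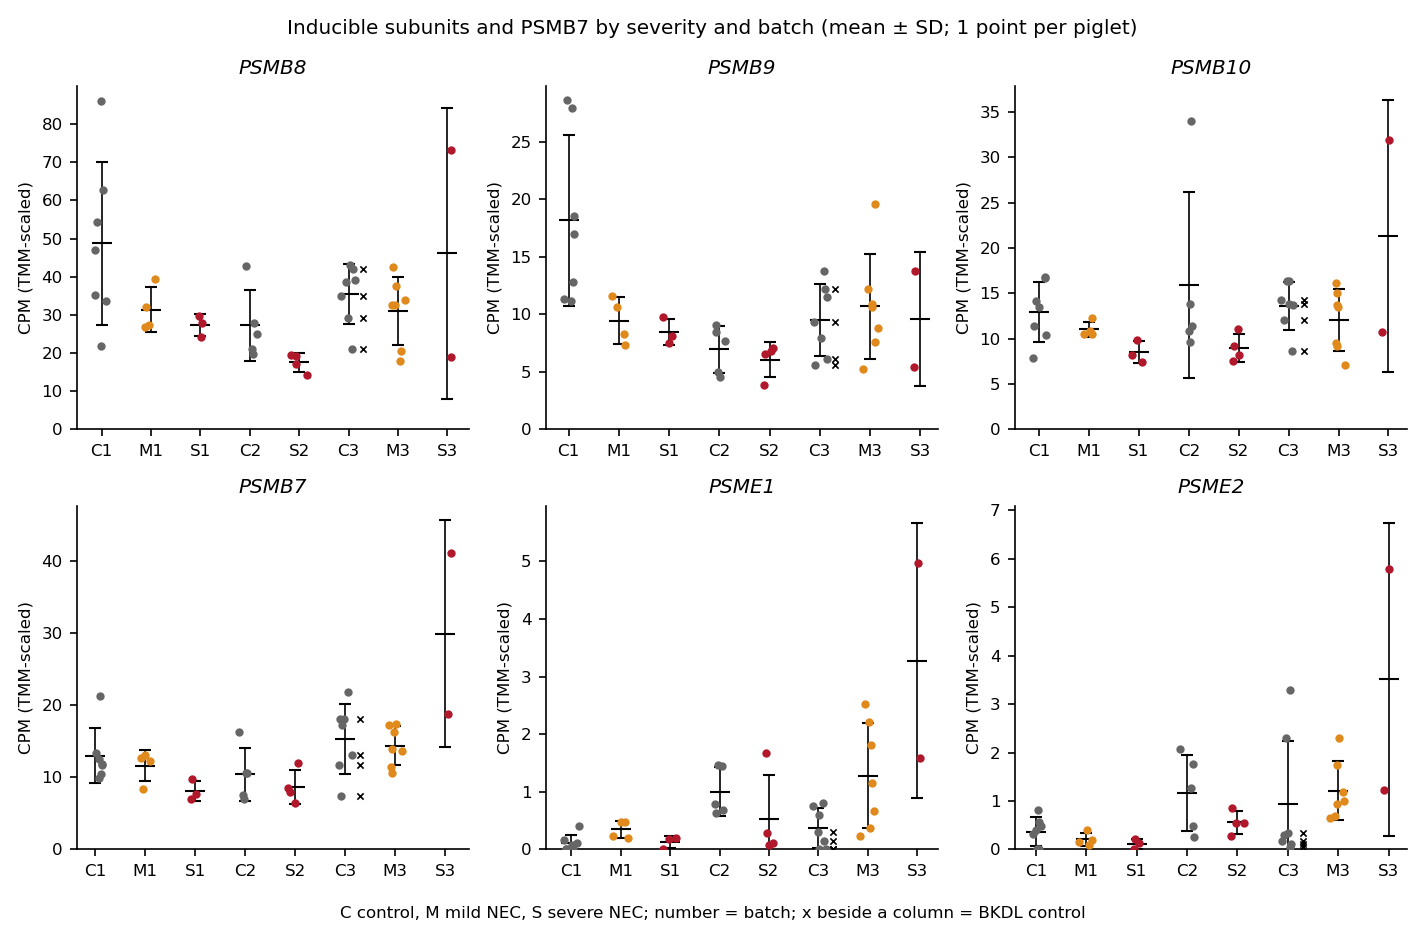
CPM per piglet (y axis, linear) of the 5 inducible genes and the standard subunit PSMB7, by severity and batch; bars are mean ± SD of 7, 4, 3, 5, 4, 7, 7 and 2 piglets from left to right, and crosses repeat the 4 BKDL controls. In batches 1 and 2 each severe piglet lies below the CON median of its batch for PSMB8, PSMB9 and PSMB10, and in batch 3 the pair of severe piglets is far apart, at 19.1 and 73.1 CPM for PSMB8.

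In edgeR, whether PSMB8 and PSMB10 passed the threshold turned on that severe piglet. With all 39 libraries kept, limma called PSMB8 and PSMB10 (limma adjusted p = 0.0304 and 0.0335), where it called 15.9% of genes. Within their own batch, 8 of 9 severe piglets lay below the CON median for each of PSMB8, PSMB9 and PSMB10, and replicate 9 was the exception each time. Without NEC_Severe replicate 9, PSMB8 fell by 0.73 ± 0.20 on the log2 scale (edgeR adjusted p = 0.0201) and PSMB10 by 0.63 ± 0.18 (edgeR adjusted p = 0.0296). PSMB9 read -0.60 ± 0.24 (edgeR adjusted p = 0.122). PSMB8 and PSMB10 were the 2 members of 41 called in that fit, against 6.66% of the 10820 genes tested there. That count does not set the members apart from other genes. No other single library, left out, brought a member past the threshold in severe against CON.

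In blood as a whole, fewer cells of a type and less RNA per cell cannot be told apart. Marker lists of several cell types read differently in severe piglets, while the natural killer list went different ways by batch. Its mean log2 CPM ran from -0.96 to 1.56 in CON and from -0.60 to 2.91 in severe piglets. The severe and CON means were -0.36 and -0.14 in batch 1, 1.54 and 0.72 in batch 2, and 0.15 and 0.82 in batch 3. Of the T cell list 9 of 9 tested genes read below CON in severe piglets and 1 was called; the mean log2 CPM of the list ran from 3.98 to 5.13 in CON and from 2.87 to 4.67 in severe piglets. Of the B cell list 10 of 10 read below and 5 were called, with ranges of 1.45 to 2.84 and 0.70 to 2.35. Of the monocyte list 7 of 7 read above and 4 were called, with ranges of 2.83 to 4.92 and 4.15 to 5.42. Of the neutrophil list 6 of 6 read above and 1 was called, with ranges of 1.52 to 6.05 and 3.69 to 5.97. Of the platelet list 5 of 5 read below and 0 were called, with 2 at an unadjusted p under 0.05 in edgeR and ranges of 5.76 to 7.56 and 5.30 to 6.94. In mild piglets edgeR called 0 genes of these lists, and the B cell and monocyte lists read the other way: 9 of 10 B cell genes lay above CON and 5 of 7 monocyte genes below. There 6 B cell genes and 5 of 5 platelet genes, all of the latter below CON, had an unadjusted p under 0.05 in edgeR. None of these markers was at 0 in every library, although EBF1, FCN2, KCNJ15, NCR1 and KLRB1 were at 0 in at least 1. Across piglets, centred by severity and batch, the T cell list had r = 0.21 with PSMB8, -0.09 with PSMB9 and 0.19 with PSMB10. Over the 6 relations computed with this list the lowest adjusted permutation p was 0.382 for r and 0.230 for rho. The part of the other lists in the PSMB8 and PSMB10 values was not tested.

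PSME1 and PSME2, the alpha and beta subunits of the 11S activator (chr7:75161830-75164531 and chr7:75154570-75157871), were near the limit of detection. They had 0 to 102 and 0 to 65 counts per library, with medians of 6 and 10. PSME1 read 0, 0.306 and 1.47 CPM (lowest, median, highest) in CON, 0.196, 0.480 and 2.52 in mild and 0, 0.193 and 4.96 in severe piglets, and the groups overlapped. Its log2 fold change was 1.46 ± 0.63 for mild and 0.85 ± 0.57 for severe against CON (edgeR adjusted p = 0.598 and 0.434), and limma gave -1.16 for the latter. PSME2 read 0, 0.406 and 3.30 CPM in CON, 0.0858, 0.683 and 2.30 in mild and 0, 0.548 and 5.79 in severe piglets, with a log2 fold change of 0.04 ± 0.59 for mild and 0.04 ± 0.56 for severe. The direction of PSME1 in severe piglets thus differed between the tools.

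The standard beta subunits gave no call. PSMB7, the standard trypsin-like subunit, read 7.01, 11.8 and 21.8 CPM in CON, 8.40, 13.2 and 17.3 in mild and 6.38, 8.58 and 41.1 in severe piglets. Its groups overlapped over most of their ranges, at log2 fold changes of -0.14 ± 0.17 and 0.03 ± 0.18. In mild piglets 5 of 5 standard beta subunits read below CON, with a median of -0.27, and in severe piglets 2 of 5 did, with a median of 0.03. Without NEC_Severe replicate 9, 4 of the 5 read below, with a median of -0.10, and PSMB7 read -0.23. The widest of them was PSMB3, a structural beta subunit, at -0.45 ± 0.23 in mild piglets (edgeR adjusted p = 0.634). Of the alpha subunits, 5 of 6 read below CON in mild and 2 of 6 in severe piglets, from PSMA4 at -0.24 ± 0.15 to PSMA1 at 0.24 ± 0.14 in the latter.

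Over the 19S cap, the ATPases PSMC1 to PSMC6 ran from -0.26 (PSMC4) to 0.17 (PSMC6) in severe piglets and the 10 other subunits from -0.21 (PSMD13) to 0.29 (PSMD1). PSMD1, the large scaffold subunit, read 3.20, 4.98 and 7.39 CPM in CON, 2.88, 5.07 and 8.05 in mild and 3.41, 5.82 and 10.1 in severe piglets. NEC_Severe replicates 4, 6 and 9, at 8.33, 7.48 and 10.1 CPM, exceeded every control, and the groups otherwise overlapped. The log2 fold change for severe was 0.29 ± 0.13 (edgeR adjusted p = 0.222). The 3 other regulators all read below CON in severe piglets: PSME3, the nuclear activator, at -0.20 ± 0.12, PSME4, the PA200 activator, at -0.22 ± 0.24, and PSMF1, the PI31 regulator, at -0.20 ± 0.29. None of them passed.

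All 4 assembly chaperones also read below CON in severe piglets, with a median of -0.23. PSMG3, a chaperone of the alpha ring, read 0.716, 1.02 and 2.01 CPM in CON, 0.537, 0.964 and 2.38 in mild and 0.562, 0.852 and 1.29 in severe piglets. The severe piglets lacked the upper part of the control range, and the log2 fold change was -0.50 ± 0.24 (edgeR adjusted p = 0.238). PSMD10 (gankyrin), a chaperone of the ATPase ring, read 0.55 ± 0.27 in mild and -0.12 ± 0.27 in severe piglets (edgeR adjusted p = 0.634 and 0.857). It had 1 to 62 counts per library, with a median of 17. Its lowest levels were in the BKDL controls CON replicates 18 and 19, at 0.295 and 0.102 CPM. Over the alternative fits its mild value ran from 0.11 to 0.61. Over all 41 members the median log2 fold change was -0.03 for mild and -0.08 for severe piglets, against 0.00 and -0.05 over all genes tested. Without NEC_Severe replicate 9 it was -0.14 for severe piglets, with 31 of 41 members below CON. The median and the share below CON over all genes in that fit are not given here. The count is therefore not read as a result about the members.

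**Figure D2:**
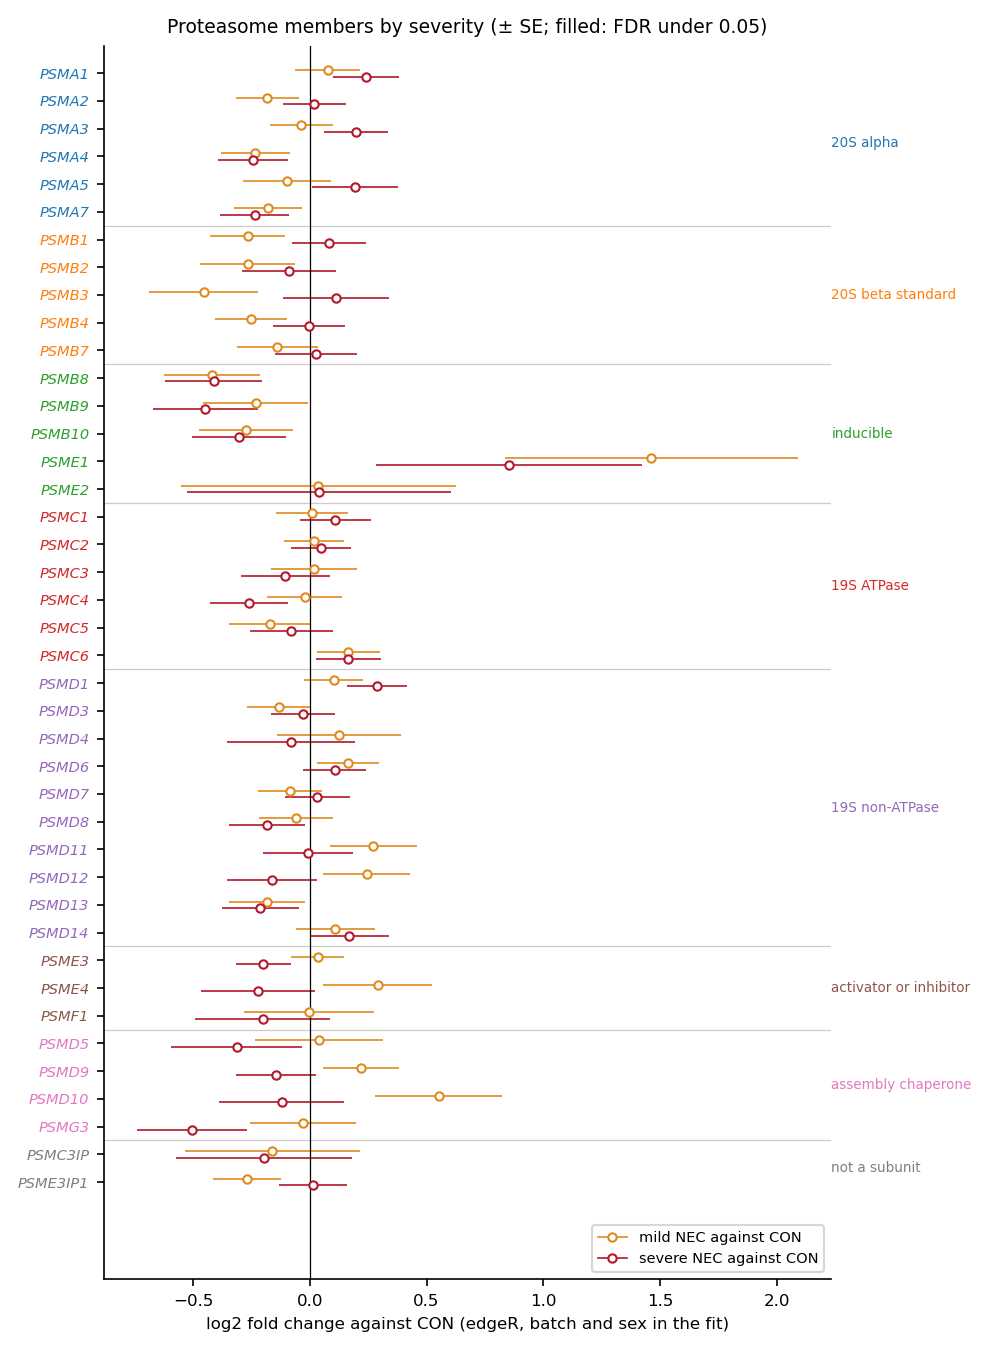
Log2 fold change ± SE (x axis) of the 41 tested members by role (y axis) for mild (orange) and severe (red) piglets against the same 19 CON piglets; open circles mark an FDR of 0.05 or more. No circle is filled, and PSME1, at 1.46 and 0.85, has the widest errors together with PSME2.

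The severe piglets did not read alike in the 3 batches. In batch 1, 39 of 41 members read below CON, against 52.5% of genes, with a median of -0.37 against -0.03 over all genes. In batch 2, 28 of 41 read below, against 54.2% of genes, with a median of -0.12 against -0.05. In batch 3, which held 2 severe piglets, 8 of 41 read below, against 54.4% of genes, with a median of 0.43 against -0.08. edgeR called 0 members in batch 1 and 0 in batch 2, and 0.149% and 0.00932% of genes. At an unadjusted p under 0.05 were 12 and 3 members, against 12.9% and 11.5% of genes. In batch 3 it called 1 member, PSME1, at 3.14 ± 0.79 (edgeR adjusted p = 0.0298), where it called 2.52% of genes. The test of the difference between batches passed for 0 members, with 15 at an unadjusted p under 0.05 in edgeR against 16.1% of genes, and for 0.103% of genes. The smallest was that for PSMB7 (edgeR adjusted p = 0.109).

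Erythroid genes read in the same directions within the batches. Of 8 tested genes of the erythroid list, which holds HBB, ALAS2, SLC4A1 and others, 8 read below CON in batch 1 (median -1.08), 7 in batch 2 (median -0.13) and 0 in batch 3 (median 0.89). The mean log2 CPM of that list ran from 7.28 to 8.74 in CON and from 5.98 to 7.01 in severe piglets of batch 1, and from 5.22 to 8.11 and from 8.09 to 8.74 in batch 3. None was called, with 4, 0 and 1 at an unadjusted p under 0.05 in edgeR, and none of these markers was at 0 in any library. The part of the erythroid genes in the differences between batches was not tested.

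In batch 1, where nearly all members read below CON, PSMB9 read 7.51, 9.76 and 8.13 CPM in severe replicates 1, 2 and 3, and the 7 controls had a lowest, median and highest value of 11.15, 17.0 and 28.6 CPM. No severe piglet of batch 1 reached a control, as in 7 of the 41 members, PSMB7, PSMC3, PSMD9, PSMD13, PSME4 and PSMF1 being the others, and in 7.71% of genes. The log2 fold change of PSMB9 was -1.10 ± 0.35 (edgeR adjusted p = 0.184). The 4 mild piglets of that batch, at 7.31, 11.6, 8.26 and 10.6 CPM, read -0.96 ± 0.31 (edgeR adjusted p = 0.833). In batch 2, PSMB8 read 17.1, 19.5, 14.3 and 19.3 CPM in severe replicates 4 to 7, against 19.8 to 42.8 CPM (median 24.9) in the 5 controls. Again the groups did not overlap, as in 2 of 41 members and 5.33% of genes, at -0.63 ± 0.32 (edgeR adjusted p = 0.455). The other such member, PSMC6, went the other way, with 9.61, 6.95, 7.65 and 6.83 CPM in severe replicates 4 to 7. Its 5 controls read 3.45 to 5.94 CPM. PSMB10 read 9.17, 8.20, 7.54 and 11.09 CPM in severe replicates 4 to 7 against 9.63 to 34.0 CPM, at -0.81 ± 0.30 (edgeR adjusted p = 0.264). In batch 2 the groups overlapped for PSMB9, with 6.78, 6.56, 3.86 and 7.11 CPM against 4.58 to 9.11 CPM, at -0.19 ± 0.32 (edgeR adjusted p = 0.879).

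In batch 3 the severe replicates 8 and 9 read 19.1 and 73.1 CPM for PSMB8, 10.7 and 32.0 for PSMB10 and 1.58 and 4.96 for PSME1. For PSMB8, replicate 8 lay below the lowest control of that batch and replicate 9 above the highest, so their mean described neither. With replicate 8 alone as the severe arm, PSMB8 read -0.85 ± 0.51, PSMB10 -0.28 ± 0.46 and PSME1 2.76 ± 1.07 in batch 3. That fit takes the lone piglet to vary like the other groups. In it 31 of 41 members still read above CON, with a median of 0.25. The share of all genes above CON there is not given here, so that count is not read as a result about the members. With replicates 8 and 9 kept but without the 4 BKDL controls, PSME1 was 2.38 and was not called (edgeR adjusted p = 0.278), where 0.0567% of genes were.

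**Figure D3:**
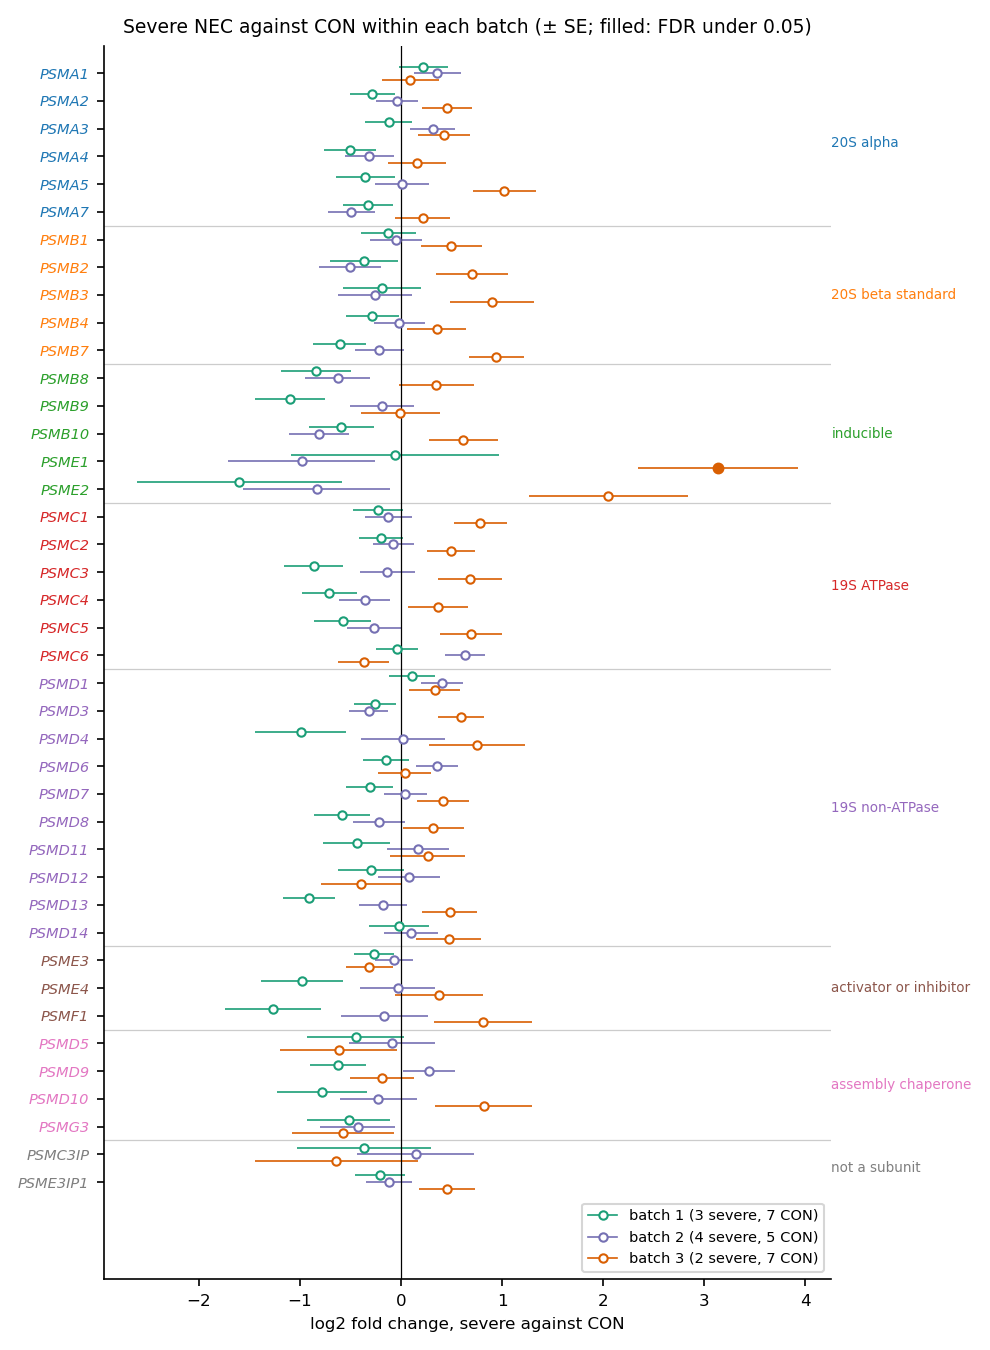
Log2 fold change ± SE (x axis) of severe against CON piglets for the 41 tested members (y axis, by role) within batch 1, batch 2 and batch 3; filled circles mark an FDR under 0.05. Batch 1 points lie mostly left of 0 and batch 3 points mostly right, and only PSME1 in batch 3, at 3.14, is filled.

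Whether the inducible subunits shifted against a standard one was asked through their ratio to PSMB7 in the same library, with group labels exchanged within batches. The log2 ratio of PSMB10 to PSMB7 averaged 0.08 ± 0.51 (SD) over the 19 CON, -0.20 ± 0.44 over the 11 mild and -0.07 ± 0.44 over the 9 severe piglets. Within batches the difference was -0.11 for mild (permutation p = 0.558, adjusted p = 0.691) and -0.26 for severe against CON (exact permutation p = 0.169, adjusted p = 0.507). For PSMB8 to PSMB7 the severe difference was -0.38 (exact permutation p = 0.121) and for PSMB9 to PSMB7 -0.37 (exact permutation p = 0.121), both with an adjusted p of 0.507. None of the 9 ratio tests, all two-sided and adjusted together, passed, and PSMB8 and PSMB9 are not matched to PSMB7 by site.

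Some inducible genes varied together from piglet to piglet. Of 4 pairs computed across 39 piglets, as log2 CPM centred by severity and batch, PSMB8 and PSMB9 had r = 0.82 and rho = 0.82 (permutation p = 1e-05 for both, the smallest that 100000 permutations can give, and adjusted p = 4e-05 and 2e-05). The relation kept r = 0.78 without the 2 piglets farthest from the median and was 0.83, 0.83 and 0.82 within batches 1, 2 and 3. PSMB9 and PSMB10 had r = 0.64 and rho = 0.66 (permutation p = 3e-05 and 1e-05, adjusted p = 6e-05 and 2e-05), with 0.63 without the 2 farthest piglets and 0.70, 0.66 and 0.65 within batches. The pair of 11S genes had r = 0.44 and rho = 0.42 (permutation p = 0.00518 and 0.0078, adjusted p = 0.00518 and 0.0104), 0.42 without the 2 farthest piglets, and -0.20, 0.46 and 0.74 within batches, so it did not hold in batch 1, where both genes were near 0. PSMB10 and PSMB7 had r = 0.48 and rho = 0.39 (permutation p = 0.00174 and 0.0134, adjusted p = 0.00232 and 0.0134). That relation was 0.22 without CON replicate 10 and NEC_Severe replicate 9, on which it rested, and 0.02, 0.67 and 0.55 within batches. All pairs share the scaling of their libraries.

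Other members varied with the erythroid genes. Each of the 41 tested members was related to the mean log2 CPM of the erythroid list. Of these, 10 had an adjusted permutation p under 0.05, a share not computed over all genes. An r above 0.5 was found in 8, against 5.36% of the 10723 tested genes outside that list. The median r was 0.19, and -0.09 over those genes. PSMD4, a ubiquitin receptor of the 19S cap, had r = 0.96 and rho = 0.92, PSME4 r = 0.95 and rho = 0.91 and PSMF1 r = 0.95 and rho = 0.90 (permutation p = 1e-05 and adjusted p = 6.83e-05 for each). They kept r = 0.94, 0.92 and 0.92 without the 2 farthest piglets and lay between 0.94 and 0.99 within each batch. The ATPase PSMC3 followed at r = 0.83, PSMC4 and PSMD13 at 0.69, PSMD11 at 0.55 and PSMC5 at 0.51.

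The levels show the span of these genes. PSMF1 read 30.0, 131 and 337 CPM (lowest, median, highest) in CON, 47.3, 164 and 248 in mild and 42.0, 104 and 335 in severe piglets, and PSMD4 6.68, 27.1 and 56.7, 9.22, 34.2 and 59.0, and 10.7, 22.8 and 50.1. Their severity groups overlapped almost fully, and both were lowest in CON replicates 11 and 16, the piglets with the lowest erythroid list. PSMB8, PSMB9 and PSMB10 had r = 0.08, 0.22 and 0.09 with the same list (adjusted permutation p = 0.838, 0.376 and 0.802), and PSMD7, the partner of the 19S deubiquitinase, had the lowest r, at -0.29 (adjusted permutation p = 0.210). Members and list share the library scaling, in which globin counts take most of the depth, and the part of that scaling was not tested.

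**Figure D4:**
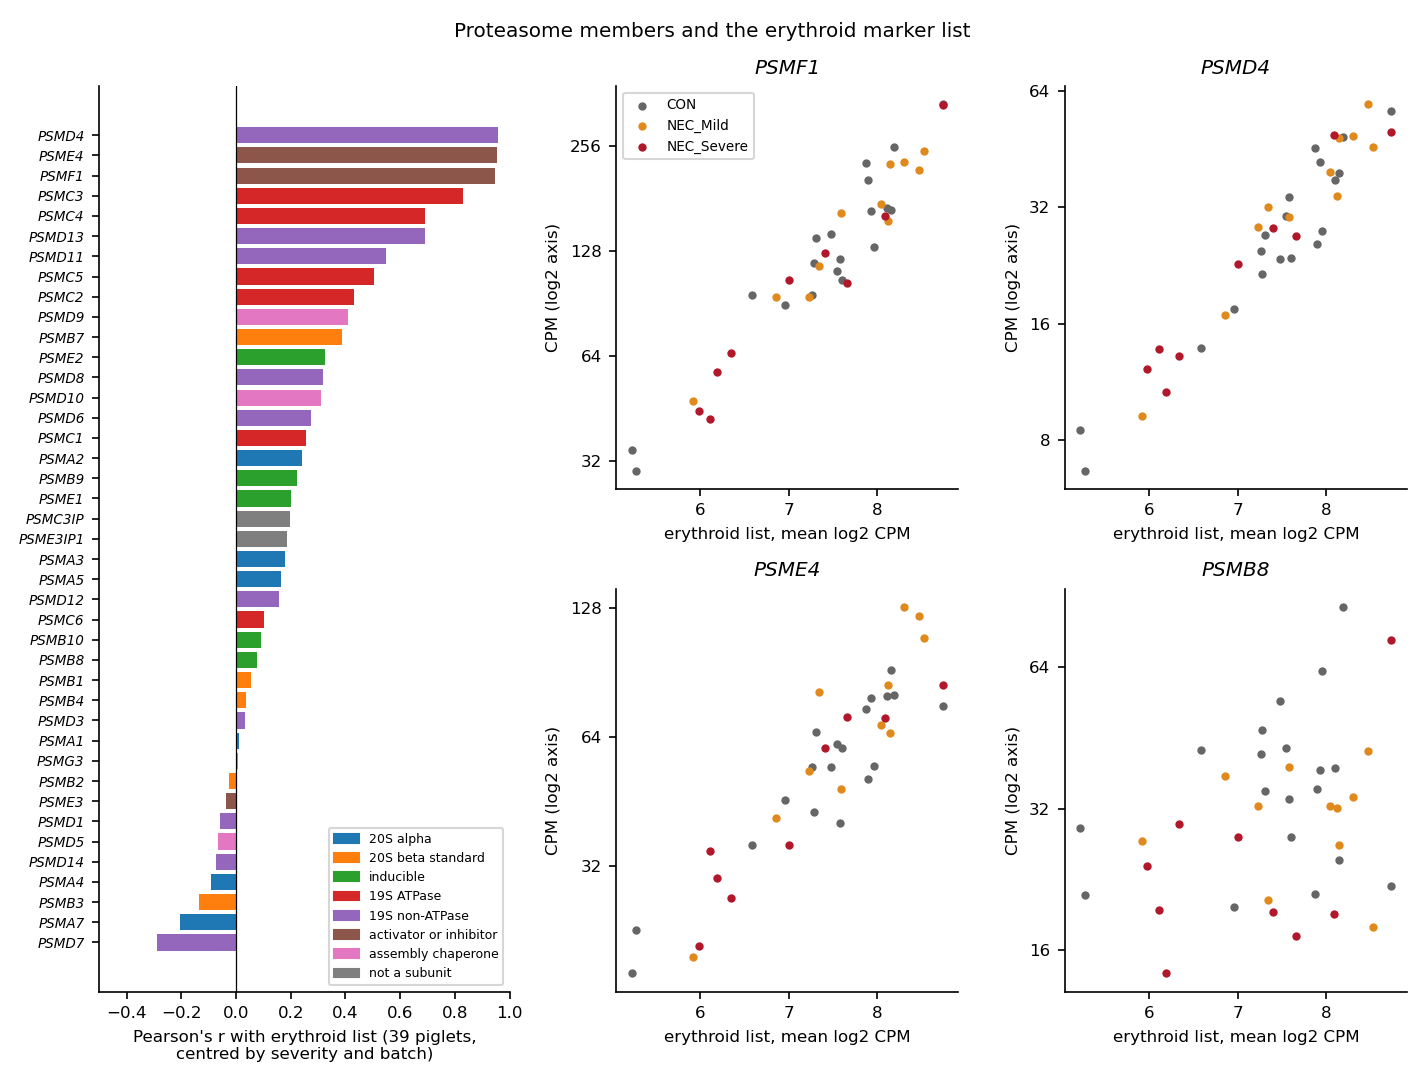
Left, Pearson's r of each tested member with the mean log2 CPM of the erythroid list across 39 piglets, centred by severity and batch, coloured by role; right, CPM (log2 axis) of PSMF1, PSMD4, PSME4 and PSMB8 against the list in each piglet. The first 3 rise along the list, and PSMB8 (r = 0.08) scatters.

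The batches were compared with severity and sex in the fit. Batch 1 coincides with the R17 library series, so batch 1 and that series cannot be told apart. Against batch 1, batch 2 differed in 5 of 41 members and batch 3 in 10 (edgeR, FDR under 0.05), where 10.3% and 19.0% of genes did. Without CON replicate 11 batch 2 differed from batch 1 in 3 members, and the share of genes in that fit is not given here. All 10 members that differed between batches 1 and 3 were higher in batch 3, where 11.3% of genes were. Against batch 2, batch 3 was higher in 5 members, where 1.34% of genes were higher and 2.07% differed.

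PSMB9 had a lowest, median and highest level of 7.31, 11.3 and 28.6 CPM in batch 1, of 3.86, 6.78 and 9.11 in batch 2 and of 5.24, 10.01 and 19.6 in batch 3. Batch 2 was the lowest, with its highest piglet below the median of batch 1, and PSMB9 fell by 1.02 ± 0.25 from batch 1 to 2 (edgeR adjusted p = 0.00697). PSMB8 read 21.9, 32.9 and 86.0 CPM, then 14.3, 19.8 and 42.8, then 17.9, 34.5 and 73.1, and fell by 0.86 ± 0.23 from batch 1 to 2 (edgeR adjusted p = 0.0133). PSMD13, a 19S lid subunit, also fell, by 0.60 ± 0.19 (edgeR adjusted p = 0.0334), while PSMD1 rose by 0.59 ± 0.15 (edgeR adjusted p = 0.00679) and PSME1 by 2.33 ± 0.68 from counts near 0 (edgeR adjusted p = 0.0217).

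From batch 1 to batch 3 the 10 called members rose. PSMD1 read 2.88, 3.88 and 4.89 CPM in batch 1 and 3.99, 6.41 and 10.1 in batch 3, a rise of 0.69 ± 0.12. PSMB2, a standard beta subunit, read 2.84, 4.18 and 7.16 CPM and 3.25, 7.83 and 17.0, a rise of 0.99 ± 0.19. In both genes the batch 3 median exceeded every piglet of batch 1. PSMA1, PSMB1, PSMB7, PSMC2, PSMD9 and PSMD14 rose by 0.51 to 0.62, and PSME1 and PSME2 by 2.49 ± 0.59 and 2.32 ± 0.56 (largest edgeR adjusted p = 0.0174, for PSMB7). Of these 10, the 9 other than PSMD9 were followed with 1 library left out, and each was called in all 39 such fits.

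Between batches 2 and 3, PSMB7 read 6.38, 8.58 and 16.3 CPM and 7.43, 16.8 and 41.1, a rise of 1.00 ± 0.20 (edgeR adjusted p = 0.00674). PSMC3 rose by 0.94 ± 0.22, PSMB4 by 0.67 ± 0.18, PSMC2 by 0.56 ± 0.15 and PSMA2 by 0.56 ± 0.15. Of the erythroid list 8 of 8 genes read higher in batch 3 than in batch 2, with a median of 1.04, and 0 were called, with 5 at an unadjusted p under 0.05 in edgeR; its mean log2 CPM ran from 5.27 to 8.15 in batch 2 and from 5.22 to 8.74 in batch 3, and its part was not tested. This comparison moved with single libraries: edgeR called 13 members, and 6.72% of genes, without CON replicate 10, 9 without NEC_Severe replicate 2 and 8 without CON replicate 16 or 17. It called 1 without CON replicate 11, and 0.556% of genes, and 1 without NEC_Severe replicate 9, and 0.397% of genes. It called 2 without CON replicate 8, 12 or 15, NEC_Mild replicate 4 or NEC_Severe replicate 5, 6, 7 or 8. For the fits that called 9, 8 or 2 members, the share of all genes is not given here. Those counts are not read as results about the members.

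**Figure D5:**
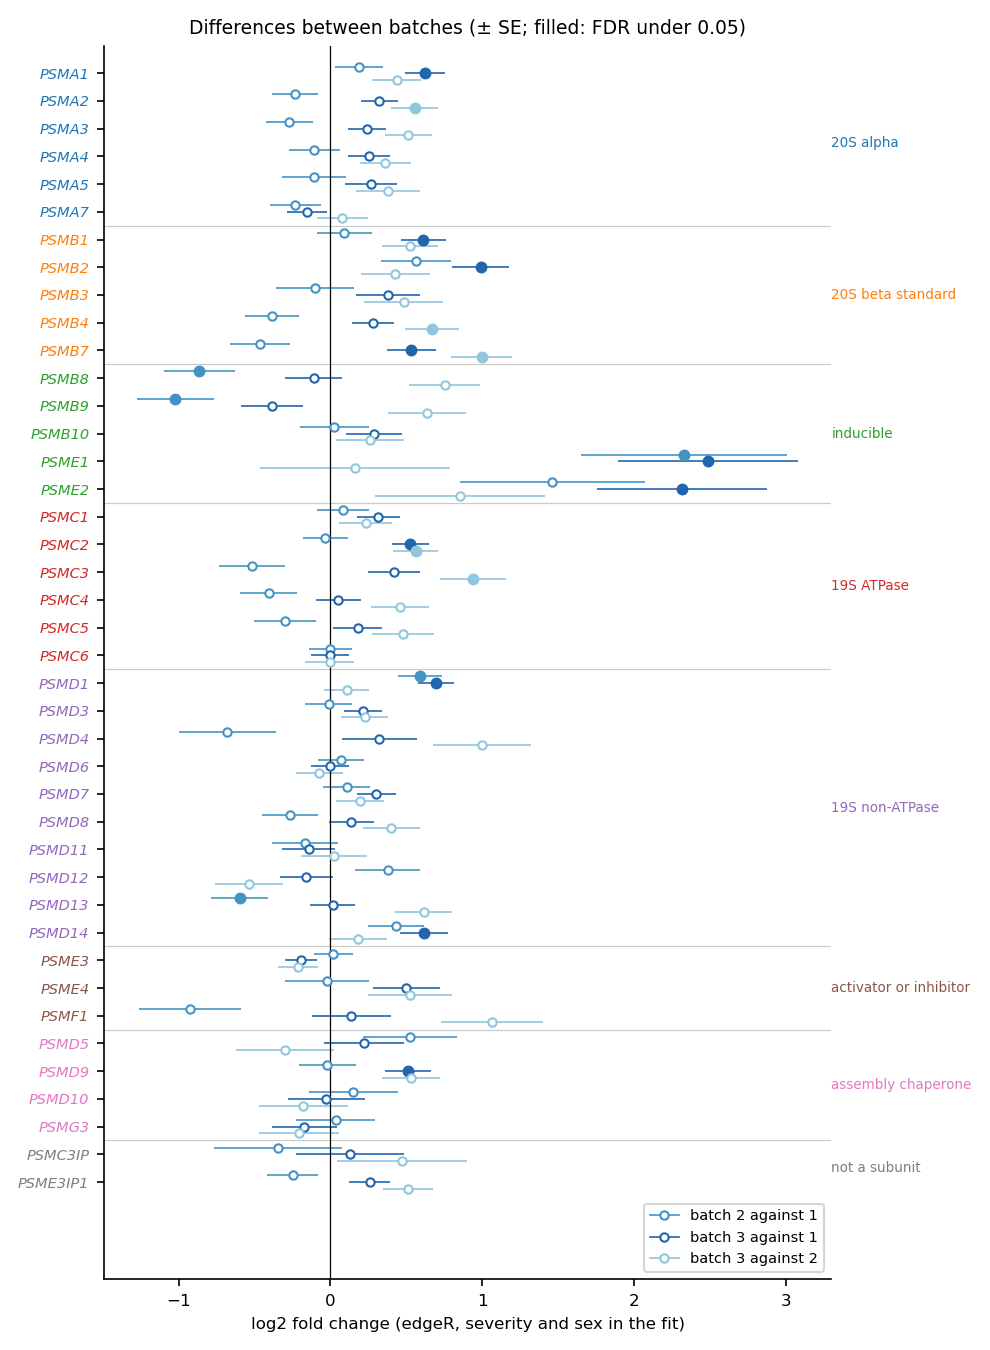
Log2 fold change ± SE (x axis) of the 41 tested members (y axis, by role) for batch 2 against 1, batch 3 against 1 and batch 3 against 2, with severity and sex in the fit; filled circles mark an FDR under 0.05. Most points of batch 3 against 2 lie right of 0, and PSMB8 and PSMB9 in batch 2 against 1 are filled at -0.86 and -1.02.

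Sex gave no call in edgeR. In males 36 of 41 members read higher and 5 lower than in females, where 55.5% of genes read lower, with a median of 0.20 against -0.03 over all genes. edgeR called 0 members, where it called 0.121% of genes, and 13 members, all higher in males, had an unadjusted p under 0.05, against 5.49% of genes. DESeq2 called 1 member, PSMF1 at 0.64, and 1.25% of genes, and limma 1, PSMC3 at 0.61, and 0.27% of genes. PSMC3 read 10.9, 19.3 and 38.2 CPM in 19 females and 12.1, 28.2 and 63.1 in 20 males, with most of the ranges shared, at 0.61 ± 0.16 (edgeR adjusted p = 0.157). PSMC3 was called in edgeR without NEC_Severe replicate 2 (0.68) or CON replicate 6 (0.69). The share of all genes in those fits is not given here, so these calls are not read as a result about the member. NEC_Severe replicate 2 is labelled male and had 0 counts of the Y-linked KDM5D. The erythroid list also read higher in males, in 8 of 8 genes with a median of 0.67 and list means of 6.11 to 8.74 against 5.22 to 8.48 in females; 0 were called, 5 had an unadjusted p under 0.05 in edgeR, and its part was not tested.

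Partners of the proteasome gave no call by severity. Of 20 tested genes for proteasome-bound enzymes, shuttles, assembly factors and related proteins, 10 read above and 10 below CON in severe piglets, with a median of 0.00, and edgeR called 0 of them in mild or severe piglets, with 2 at an unadjusted p under 0.05 in each. ZFAND5, a protein that binds and activates the proteasome, read 0.50 in severe piglets (edgeR adjusted p = 0.0667). Between batches 1 and 3, 6 of the 20 rose and 1 fell, where 11.3% of genes rose and 19.0% differed.

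The genes around interferon-gamma, which drives the inducible subunits, were also tested. Of 10, 7 read above and 3 below CON in severe piglets and 0 were called, with 3 at an unadjusted p under 0.05 in edgeR. JAK2, the kinase of the interferon-gamma receptor, read 0.64 (edgeR adjusted p = 0.0646), the receptor chain IFNGR1 0.53 and the transcription factor IRF1 -0.51 (edgeR adjusted p = 0.241 for each). Of 12 genes that carry or trim peptides for MHC class I, 7 read below CON and 0 were called, with 2 at an unadjusted p under 0.05 in edgeR. TAP1 and TAP2, the peptide transporter, read -0.33 and -0.43 (edgeR adjusted p = 0.402 and 0.233).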

How the data were processed

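Whole-blood RNA of 39 piglets was sequenced as mRNA libraries, 1 deposited file of raw counts per piglet. TopHat, HTSeq, Trim Galore and DESeq2 and the build Sscrofa11.1 are named per the submitters' processing notes; tool versions, annotation and strandedness are not stated there. The 5 closing lines of each file, which name no gene, stayed out; reads aligned to several places were a mean of 30.5% of all counted reads, so counts on near-identical copies are uncertain. Symbols came from a table of Ensembl pig IDs, which named 14857 rows, and coordinates were looked up by symbol in RefSeq genes of the same build.

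Counts were tested with edgeR 4.0.16 (R 4.3.3): TMM scaling, filterByExpr with a minimum count of 10, which kept 10731 genes, and the robust quasi-likelihood test with Benjamini-Hochberg adjustment over all of them. Severity, batch and sex were terms, all 39 piglets entered each fit, and within-batch values came from a fit of group and batch cells with sex. Standard errors were derived from each log2 fold change and its F statistic. DESeq2 1.42.0 and limma 3.58.1 were alternatives, besides other scaling, filters, terms and left-out libraries. The scripts were tested on simulated data. Each library is a piglet of its own by the labels and counted as 1 replicate, and no pair in a group agreed within sampling noise (lowest chi-square per degree of freedom 8.53). Correlations used log2 CPM with a prior count of 2, ratios counts plus 0.5, and permutations 100000 draws or, up to 1000000 arrangements, all of them.

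The members, the marker and pathway lists and the named-gene rule were chosen with earlier results of these data known. That rule names the inducible genes and PSMB7 throughout, the called members, and otherwise the members of smallest p up to 4. The ratios of PSMB8 and PSMB9 to PSMB7, the erythroid and T cell relations and the within-batch fits without NEC_Severe replicate 9 were added after seeing the data.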

Additional observations from a re-analysis of the deposited data

Results flagged for a closer look

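Gaps to the nearest piglet that were large for the range of the group were sought by Dixon's 95% critical values. They were found for 22 gene and group pairs of 66 checked. Chance flags about 1 in 20 groups of independent, normally distributed values. The CPM were not log-transformed and genes of a library share its scaling, so the count is not read against that rate. The severe piglets were checked over all named members, some of them named through batch 3 comparisons that include NEC_Severe replicate 9. These piglets also come from 3 batches, so a batch difference can enter the gap. In 17 of the 22 pairs NEC_Severe replicate 9 was the highest of the 9 severe piglets, a count not independent of that choice. Its CPM was 73.1 for PSMB8, where the next piglet had 29.8, 32.0 for PSMB10 (next 11.09), 41.1 for PSMB7 (next 18.8), 4.96 for PSME1 (next 1.67) and 5.79 for PSME2 (next 1.23). Among core subunits it read 21.9 for PSMA7, 25.5 for PSMA2, 17.0 for PSMB2 and 24.4 for PSMB4. Among cap ATPases it read 13.8 for PSMC1, 12.5 for PSMC2, 63.1 for PSMC3 and 44.2 for PSMC5, and among the other cap subunits 25.5 for PSMD3 and 37.6 for PSMD13. For the regulator PSMF1 it read 335, and for PSME3IP1, which is no subunit, 14.9. Other members went the other way: it was the lowest of all 39 libraries for PSMD12 (0.724), PSMC6 (3.10), PSMD5 (0) and PSMC3IP (0). The same library had 87.6% of its counts on globin genes, a TMM factor of 0.399 and the fewest genes detected, and its part in these values was not tested.

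The other 5 were in smaller groups. In batch 1 CON replicate 1 had 0.399 CPM of PSME1 and CON replicate 7 had 21.3 CPM of PSMB7. In batch 2 CON replicate 10 had 34.0 CPM of PSMB10, where the next control had 13.8. NEC_Severe replicate 6 was low for PSMB9 at 3.86 CPM, and NEC_Severe replicate 4 high for PSME1 at 1.67 CPM.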

How the results depend on the processing

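No paired analysis was possible because the labels give no replicate numbers that the groups share. Counts of called members were within 1.5 times the main count except as follows. limma called 2 in severe against CON, 1 in severe against mild, 11 in batch 2 against 1 and 16 in batch 3 against 2; DESeq2 called 11 in the last, which had 2 with no low-count filter and 14 without the BKDL controls. DESeq2 and limma each called 1 for sex. With 1 library left out, calls ranged from 0 to 2 for severe against CON, 0 to 1 for sex, 3 to 7 for batch 2 against 1 (3 without CON replicate 11), 10 to 13 for batch 3 against 1 and 1 to 13 for batch 3 against 2, and were 0 for NEC, mild, severe against mild and both batch interactions. Most of these fits of the batches, and those of sex with 1 library left out, have no share of all genes given here. Their counts are not read as results about the members. PSME1 and PSME2 had r = -0.20 in batch 1 and 0.74 in batch 3. PSMB10 and PSMB7 had r = 0.22 without the 2 farthest piglets and 0.0167 in batch 1.

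Signs reversed for values that had not passed in the main fit. PSME2 was -0.0688, -0.0801 and -0.0650 by DESeq2 in NEC, mild and severe, -0.69, -0.98 and -0.54 without the BKDL controls, -0.44 by limma and -0.00323 with title number in place of batch in severe. PSMB7 was 0.00990 in NEC, 0.0219 in mild and -0.00492 in severe without batch and sex terms, and -0.20 by limma and -0.0799 without the BKDL controls in severe; PSME1 was -1.16 by limma. In severe against mild, PSMB8 was -0.23 by limma, -0.00244 without globin genes, -0.00653 with the CPM filter and -0.20 without batch and sex terms. PSMB10 was 0.0121 with no filter, 0.000239 with title number, 0.0280 without the BKDL controls and 0.17 without batch 2, where PSME1 was 0.0555. PSME2 was -1.31 by limma, -0.000990 with DESeq2 size factors, -0.0126 without globin genes and -0.14 with title number, and PSMB7 -0.17 by limma and -0.0268 without batch and sex terms. In batch 2 against 1 PSMB10 was -0.0239 by DESeq2 and with its size factors and -0.10 by limma; PSMB8 was 0.0598 in batch 3 against 1 without the BKDL controls, and PSME1 -0.66 in batch 3 against 2 by limma. For sex PSMB9 was -0.0114 without the BKDL controls and -0.000797 without batch 2, and for severe in batch 3 it was 0.00872 with no filter. The causes were not tested.

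Leaving out 1 library also crossed 0. PSME2 ranged from -0.22 to 0.30 in NEC, -0.19 to 0.38 in mild, -0.59 to 0.25 in severe and -0.73 to 0.19 in severe against mild. PSMB10 ranged from -0.27 to 0.15 in batch 2 against 1, -0.0452 to 0.55 in batch 3 against 2, -0.28 to 0.61 for severe in batch 3 and -0.42 to 0.10 in severe against mild. PSMB7 ranged from -0.23 to 0.13 in severe and -0.13 to 0.27 in severe against mild. PSMB8 ranged from -0.85 to 0.35 for severe in batch 3 and -0.38 to 0.11 in severe against mild, and PSME1 from -0.34 to 0.36 in batch 3 against 2. Depth limits PSME1, PSME2 and PSMC3IP, at medians of 6, 10 and 6 counts per library. Counts were also low for PSMD10, PSMG3 and PSMD5, at medians of 17, 19 and 22.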
